A study of Saccharomyces cerevisiae with 9 samples.

Results

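The genes described here make, break down and control sphingolipids in budding yeast. They are 34 genes chosen by name: the subunits and regulators of serine palmitoyltransferase, the enzymes that lengthen fatty acids for ceramide, ceramide synthase, the enzymes that hydroxylate or split ceramide, those that build and cleave the complex sphingolipids, the kinases, phosphatases, lyase and exporter of long-chain bases, and the Ypk kinases. All 34 were found among the 6215 genes measured, and all 34 were among the 5886 genes that passed the filter on low values (10 normalized reads on average over the libraries).

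Polyadenylated RNA was sequenced from 3 haploid MATα strains with 3 biological replicates each, cultured in synthetic complete medium at 28 °C for 24 h. The cells of all strains were washed in 10 mM NaF/NaN3. The seg1Δ nce102Δ pil1Δ strain, called the triple mutant below, lacked the genes of 3 proteins of eisosomes, which are protein scaffolds that hold furrows in the plasma membrane. The pil1Δ strain (pil1::kanMX4) lacked only PIL1, which encodes a main scaffold protein, and the wild type was BY4742. All 3 strains carried his3Δ1, leu2Δ0 and ura3Δ0. The pil1Δ strain and wild type also carried lys2Δ0, whereas the triple mutant was listed with LYS2 and MET15, so the state of LYS2 and the loss of SEG1 and NCE102 cannot be told apart in its comparisons. The labels do not say how many isolates of each deletion strain were used. The comparisons ask how transcript levels differ when PIL1 alone or all 3 genes are missing.

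Sphingolipid synthesis starts in the endoplasmic reticulum, where serine palmitoyltransferase joins serine to a fatty acyl-CoA. The product becomes a long-chain base, which ceramide synthase couples to a very long fatty acid to give ceramide, and inositol-containing headgroups are added in the Golgi. Orm proteins hold serine palmitoyltransferase back. The kinase Ypk1, acting downstream of the TORC2 complex, phosphorylates Orm proteins and so relieves this brake. The Slm proteins that recruit Ypk1 to TORC2 sit partly in eisosomes.

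Of the 34 genes, 9 rose and 14 fell in the triple mutant relative to wild type, and 11 did not pass the test. The genes that fell included 5 of the 6 genes of fatty acid elongation, led by ELO2 at 4.37-fold lower, and LCB1, TSC3 and CSH1. Those that rose included YPC1, which encodes a ceramidase, at 3.59-fold higher, ORM2, SCS7 and RSB1. In pil1Δ against wild type, 0 of the 34 genes passed the test. The test was limma over all genes on log2(normalized reads + 1), and a gene passed, or was called, at a Benjamini-Hochberg adjusted p under 0.05.

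These counts stand against a wide change of the whole transcriptome. Between the triple mutant and wild type, 60.9% of the 5886 genes tested were called, with 30.1% higher and 30.9% lower, so the 23 of 34 called here are a share near that of all genes. At a change of at least 2-fold, 8 of the 34 genes were called, 4 in each direction, against 19.9% of all genes. Libraries of the triple mutant and wild type did not overlap for 23 of the 34 genes, against 65.6% of all genes, with 9 above wild type (32.7% of all) and 14 below (32.9% of all). The median log2 fold change was -0.03 over the 34 genes and -0.01 over all genes, with a range of -2.13 to 1.84 among the 34. Scaling by total reads in place of size factors moved the median of all genes to -0.23 and the calls to 1029 higher and 2383 lower, against 1770 higher and 1816 lower as scaled by the authors. Of the 34 genes, 7 were then called higher and 15 lower, and the 23 genes called with the authors' scaling kept their direction. In RNA from whole cultures, fewer cells carrying a transcript and less RNA per cell cannot be told apart.

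The deleted genes followed the labels in every library. PIL1 had 89.9 to 99.9 normalized reads in the triple mutant and 111 to 116 in pil1Δ, against 15878 to 21404 in wild type. SEG1 had 13.6 to 27.3 normalized reads and NCE102 had 139 to 239 in the triple mutant, against at least 6114 and 76222 in the other strains. Depth lay between 21064051 and 27014469 reads per library, and size factors lay between 0.791 and 0.953 in the triple mutant and between 1.02 and 1.34 in the other strains. Among the 34 genes the fewest reads behind a value were 53, on ELO2 in the triple mutant. No gene of the set overlaps another annotated gene, and no stretch of 25 coding bases is shared with another gene.

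**Figure D1:**
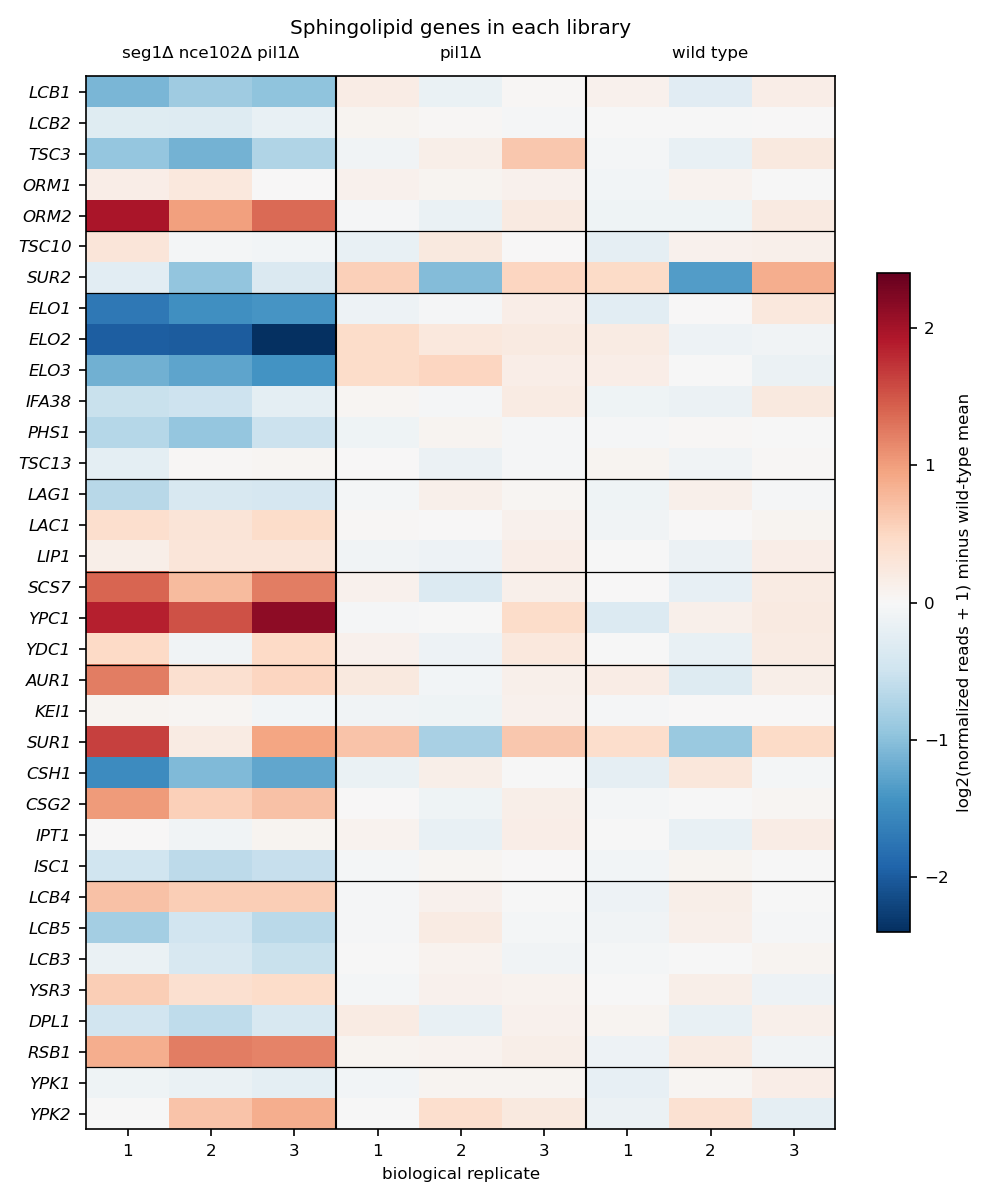
Heat map of the 34 genes (rows, grouped by role) in the 9 libraries (columns), coloured by log2(normalized reads + 1) minus the wild-type mean of that gene. The triple mutant columns show the lower elongation genes and the higher ORM2, SCS7, YPC1 and RSB1, while the pil1Δ columns stay near the wild-type columns. Within each strain, SUR1 and SUR2 are lowest in the library numbered 2.

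Upstream DNA is shown for 6 of the 8 genes called at 2-fold or more in the triple mutant against wild type. They are ELO1, ELO2 and ELO3, which fell together, and YPC1, SCS7 and ORM2, which rose. CSH1 and RSB1 are not shown. Each stretch runs 5′ to 3′ on the gene's strand, from 300 to 101 bases before the coding start, and was read from the R64 reference genome of RefSeq. Capitals mark matches, on either strand, to the motifs searched. ELO1 is shown from chrX:68883-69082 on the minus strand, ELO2 from chrIII:190292-190491 on the plus strand, ELO3 from chrXII:867054-867253 on the plus strand, YPC1 from chrII:595815-596014 on the plus strand, SCS7 from chrXIII:810878-811077 on the minus strand, and ORM2 from chrXII:828430-828629 on the plus strand.
ELO1: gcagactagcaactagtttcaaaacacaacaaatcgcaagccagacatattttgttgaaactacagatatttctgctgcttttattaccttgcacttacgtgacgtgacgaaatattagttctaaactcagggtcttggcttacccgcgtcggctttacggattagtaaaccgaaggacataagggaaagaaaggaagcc
ELO2: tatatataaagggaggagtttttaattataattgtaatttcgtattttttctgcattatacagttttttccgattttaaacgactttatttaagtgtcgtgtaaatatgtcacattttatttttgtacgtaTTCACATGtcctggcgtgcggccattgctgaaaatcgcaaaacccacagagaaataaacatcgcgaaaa
ELO3: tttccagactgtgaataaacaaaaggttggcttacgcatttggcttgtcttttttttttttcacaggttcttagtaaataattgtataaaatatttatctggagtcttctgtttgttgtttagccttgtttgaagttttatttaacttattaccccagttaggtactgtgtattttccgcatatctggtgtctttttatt
YPC1: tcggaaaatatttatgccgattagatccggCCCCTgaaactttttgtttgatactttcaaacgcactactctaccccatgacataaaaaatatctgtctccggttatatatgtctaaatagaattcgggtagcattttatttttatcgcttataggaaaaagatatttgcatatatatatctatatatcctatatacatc
SCS7: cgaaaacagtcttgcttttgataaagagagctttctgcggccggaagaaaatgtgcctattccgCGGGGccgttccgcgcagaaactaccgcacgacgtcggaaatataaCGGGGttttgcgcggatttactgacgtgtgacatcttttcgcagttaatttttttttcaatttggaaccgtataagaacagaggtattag
ORM2: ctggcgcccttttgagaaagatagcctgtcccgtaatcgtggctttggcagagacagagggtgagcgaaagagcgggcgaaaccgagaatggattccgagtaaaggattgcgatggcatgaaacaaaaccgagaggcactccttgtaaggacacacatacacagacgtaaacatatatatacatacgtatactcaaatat

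The motifs were searched in the 300 bases before each coding start, on both strands, and no match among the 34 genes shared a base with a match to another motif. The letters CATGTGAA, with which the inositol-responsive element begins, were found before 1 of the 34 genes, ELO2, and before 0.902% of 6211 genes. They are printed above in capitals on the opposite strand, 169 to 162 bases before the start of ELO2. The stress response element AGGGG was found before 9 of the 34 genes, YPC1 among them, and before 21.9% of all genes. The letters CCCCG, a core of the sites of the glucose repressor Mig1, were found before SCS7, DPL1 and YPK2, and before 9.45% of all genes. CCAAT, the box of the Hap complex, was found before 10 of the 34 genes and 42.0% of all, and the pleiotropic drug response element TCCGNGGA before LCB2 and 1.30% of all. ELO2 and ELO3 were among the 10, with CCAAT on the opposite strand 88 to 84 and 91 to 87 bases before the start. These matches, and another AGGGG of YPC1 at 83 to 79 bases, lie nearer to the start than the printed stretches. Matches are a description of the letters, not of binding.

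Serine palmitoyltransferase and its Orm regulators moved in opposite directions in the triple mutant: all 3 subunit genes fell and 1 of the 2 Orm genes rose. Of all genes, 30.9% fell and 30.1% rose relative to wild type. LCB1 (YMR296C, chromosome XIII, 859215 to 860891, R64), which encodes a catalytic-core subunit, had 1723, 2039 and 1900.3 normalized reads in replicates 1 to 3 of the triple mutant. It had 4166, 3307 and 3787 in pil1Δ and 3999, 3053 and 4150.1 in wild type. Every triple mutant library lay below every library of the other strains. LCB1 was 1.96-fold lower in the triple mutant than in wild type (log2 fold change -0.97, standard error 0.14, limma adjusted p = 0.000289). LCB2, which encodes the partner subunit that carries the cofactor, changed far less. It had 3621, 3554 and 3909 normalized reads in the triple mutant, 4627, 4536 and 4321 in pil1Δ and 4390.1, 4404 and 4472 in wild type, and was 1.20-fold lower in the triple mutant (limma adjusted p = 0.0117). Set per coding kilobase, LCB1 made up 33.9 ± 2.32% of the sum of LCB1 and LCB2 in the triple mutant, 45.5 ± 2.84% in pil1Δ and 45.7 ± 4.03% in wild type (mean ± SD, n = 3). TSC3, which encodes a small subunit that raises the enzyme's activity, had 1000.1, 863 and 1151 normalized reads in the triple mutant, 1788, 2105 and 2975 in pil1Δ and 1837, 1683 and 2239 in wild type. The triple mutant libraries were again the lowest without overlap, and TSC3 was 1.91-fold lower than in wild type (log2 fold change -0.93, standard error 0.19, limma adjusted p = 0.00262).

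ORM2 (YLR350W, chromosome XII, 828730 to 829380, R64), which encodes an inhibitor of serine palmitoyltransferase, had 11112, 5644 and 7342 normalized reads in replicates 1 to 3 of the triple mutant, 2788, 2542 and 3292 in pil1Δ and 2656, 2649.7 and 3293 in wild type. All triple mutant libraries lay above all others, and replicate 1 lay well above the other 2. ORM2 was 2.71-fold higher in the triple mutant than in wild type (log2 fold change 1.44, standard error 0.22, limma adjusted p = 0.000512), with log2 fold changes of 1.17 to 1.66 as single libraries were left out. Its paralog ORM1 had 1138, 1221 and 1033 normalized reads in the triple mutant, 1106, 1071 and 1101 in pil1Δ and 976, 1080.2 and 1020.0 in wild type, and the groups overlapped. ORM1 did not pass the test (log2 fold change 0.14, 95% interval -0.05 to 0.33). Per coding kilobase, ORM1 made up 9.06, 17.4 and 12.0% of the pair in replicates 1 to 3 of the triple mutant, against 27.9, 29.1 and 24.6% in pil1Δ and 26.3, 28.4 and 23.2% in wild type.

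The next enzymes toward the long-chain base were not called. TSC10, which encodes the reductase that follows serine palmitoyltransferase, had a log2 fold change of 0.06 (95% interval -0.27 to 0.40) in the triple mutant relative to wild type. SUR2, which encodes the hydroxylase that makes phytosphingosine, split by replicate number in every strain. It had 6041, 3736 and 5626 normalized reads in replicates 1 to 3 of the triple mutant, 10608, 3508 and 10206 in pil1Δ and 9911, 2833 and 13148 in wild type. Library 2 was the lowest in each strain, by up to 4.64-fold between the highest and the lowest wild type library. SUR2 had a log2 fold change of -0.51 (standard error 0.59, limma adjusted p = 0.476) with all libraries. With the 3 libraries numbered 2 left out, an alternative chosen after seeing the data, it was -0.97 (limma adjusted p = 0.00213).

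Fatty acid elongation showed the widest fall. Each round of elongation is started by an Elo condensing enzyme, then a reductase, a dehydratase and a second reductase complete it, and the very long chains go into ceramide. In the triple mutant relative to wild type, 5 of the 6 genes fell and 0 rose, where 30.9% of all genes fell and 30.1% rose. The median log2 fold change of the 6 genes was -0.997. ELO2 (YCR034W, chromosome III, 190592 to 191635, R64), whose enzyme carries chains past the common long lengths, had 91.0, 89.2 and 67.0 normalized reads in the triple mutant, 491, 431 and 416 in pil1Δ and 412, 333 and 340.3 in wild type. The 3 strains did not overlap: the triple mutant was lowest, then wild type, then pil1Δ. ELO2 was 4.37-fold lower in the triple mutant than in wild type (log2 fold change -2.13, standard error 0.15, limma adjusted p = 7.56e-06), the largest fall among the 34 genes in this fit. It was also the lowest of the 34 genes per coding kilobase in each strain, with 78.9 normalized reads per kilobase in the triple mutant and 346 in wild type.

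ELO3 (YLR372W, chromosome XII, 867354 to 868391, R64), whose enzyme makes the longest chains, had 422, 391 and 348 normalized reads in the triple mutant, 1273, 1346 and 1056 in pil1Δ and 1052, 934 and 855 in wild type. As for ELO2, the triple mutant was lowest and pil1Δ highest, with no overlap. ELO3 was 2.44-fold lower in the triple mutant than in wild type (log2 fold change -1.29, standard error 0.12, limma adjusted p = 3.46e-05). Per coding kilobase, ELO2 made up 17.4 ± 1.22% of the ELO2 and ELO3 sum in the triple mutant, 26.7 ± 2.21% in pil1Δ and 27.5 ± 1.18% in wild type (mean ± SD, n = 3). ELO1 (YJL196C, chromosome X, 67850 to 68782, R64), whose enzyme lengthens medium chains, fell as well. It had 717, 849.7 and 883 normalized reads in the triple mutant, 2163, 2332 and 2633 in pil1Δ and 1976, 2391 and 2804 in wild type, and was 2.91-fold lower than in wild type (log2 fold change -1.54, standard error 0.14, limma adjusted p = 2.65e-05). Here pil1Δ and wild type overlapped.

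The enzymes shared by every round of elongation changed less. PHS1, which encodes the dehydratase, averaged 425 ± 59.5 normalized reads in the triple mutant and 688 ± 13.4 in wild type (SD, n = 3 each), 1.63-fold lower (limma adjusted p = 0.000533). IFA38, which encodes the ketoacyl reductase, averaged 1383 ± 163 in the triple mutant and 1856 ± 282 in wild type, 1.34-fold lower (limma adjusted p = 0.0177). The call for IFA38 was lost without wild type replicate 3 (adjusted p = 0.0632), without triple mutant replicate 1 (0.0548), without triple mutant replicate 2 (0.0545) or without replicate 1 of both strains (0.0590), by limma. TSC13, which encodes the enoyl reductase, was not called, at a log2 fold change of -0.05 (95% interval -0.28 to 0.17).

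**Figure D2:**
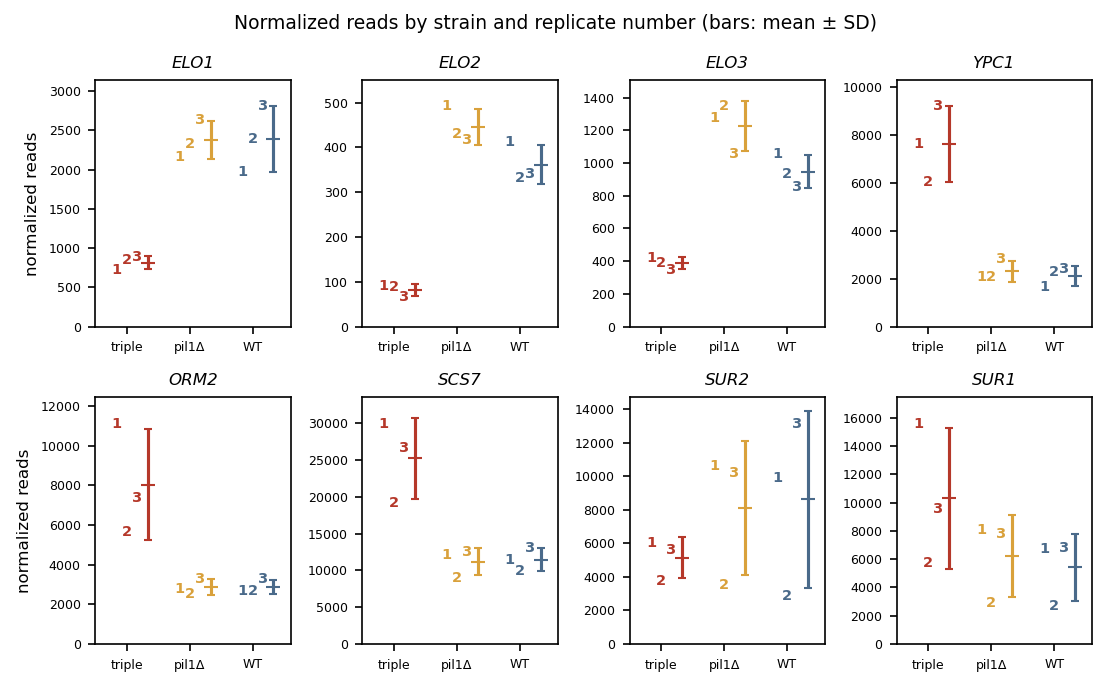
Normalized reads of 8 genes in each library, on a linear axis from 0, with the triple mutant (triple), pil1Δ and wild type (WT) side by side; digits are replicate numbers, and bars are the mean ± SD of 3 libraries. The triple mutant lies below the other strains for ELO1, ELO2 and ELO3 and above them for YPC1, ORM2 and SCS7, while SUR2 and SUR1 are lowest in library 2 of every strain.

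The subunits of ceramide synthase did not move together. LAG1 and LAC1 encode alternative catalytic subunits. LAG1 averaged 2306 ± 239 normalized reads in the triple mutant and 3221 ± 268 in wild type, 1.40-fold lower (limma adjusted p = 0.00275). LAC1 averaged 2321 ± 97.8 in the triple mutant and 1781 ± 95.1 in wild type, 1.30-fold higher (limma adjusted p = 0.00171), a call that was lost when libraries were scaled by total reads (log2 fold change 0.16, limma adjusted p = 0.213). LIP1, which encodes the small subunit both need, was not called (log2 fold change 0.24, 95% interval -0.01 to 0.48). Per coding kilobase, LAG1 made up 46.9, 52.9 and 50.7% of the LAG1 and LAC1 sum in the triple mutant libraries, against 63.7, 66.3 and 64.1% in pil1Δ and 64.4, 66.5 and 63.3% in wild type.

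Among the genes that act on ceramide itself, 2 of 3 rose and 0 fell in the triple mutant, where 30.1% of all genes rose and 30.9% fell. SCS7 (YMR272C, chromosome XIII, 809623 to 810777, R64), which encodes the hydroxylase of the fatty acid in ceramide, had 29947, 19162 and 26594 normalized reads in the triple mutant, 12139, 9025 and 12442 in pil1Δ and 11381, 9894 and 13022 in wild type. All triple mutant libraries were above all others, and SCS7 was 2.18-fold higher than in wild type (log2 fold change 1.13, standard error 0.20, limma adjusted p = 0.00109). It had the highest level per coding kilobase of the 34 genes in each strain, at 21848 normalized reads per kilobase in the triple mutant and 9898 in wild type.

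YPC1 (YBR183W, chromosome II, 596115 to 597065, R64), which encodes the ceramidase that prefers phytoceramide, had 7614, 6025 and 9194 normalized reads in the triple mutant, 2059, 2078 and 2826 in pil1Δ and 1662, 2274 and 2411 in wild type. The lowest triple mutant library was above the highest of the other strains by more than 2-fold. YPC1 was 3.59-fold higher in the triple mutant than in wild type (log2 fold change 1.84, standard error 0.20, limma adjusted p = 6.39e-05), the largest rise among the 34 genes in this fit. Its paralog YDC1, which encodes a ceramidase that prefers dihydroceramide, had 5765, 3930.5 and 5803 normalized reads in the triple mutant, 4493, 3845 and 4961 in pil1Δ and 4119, 3678 and 4756 in wild type. The groups overlapped and YDC1 was not called (log2 fold change 0.29, limma adjusted p = 0.173). Per coding kilobase, YPC1 made up 57.0, 60.6 and 61.4% of the pair in the triple mutant, against 31.5, 35.2 and 36.4% in pil1Δ and 28.8, 38.3 and 33.7% in wild type, so YPC1 was above its paralog in the triple mutant and below it in the other strains.

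**Figure D3:**
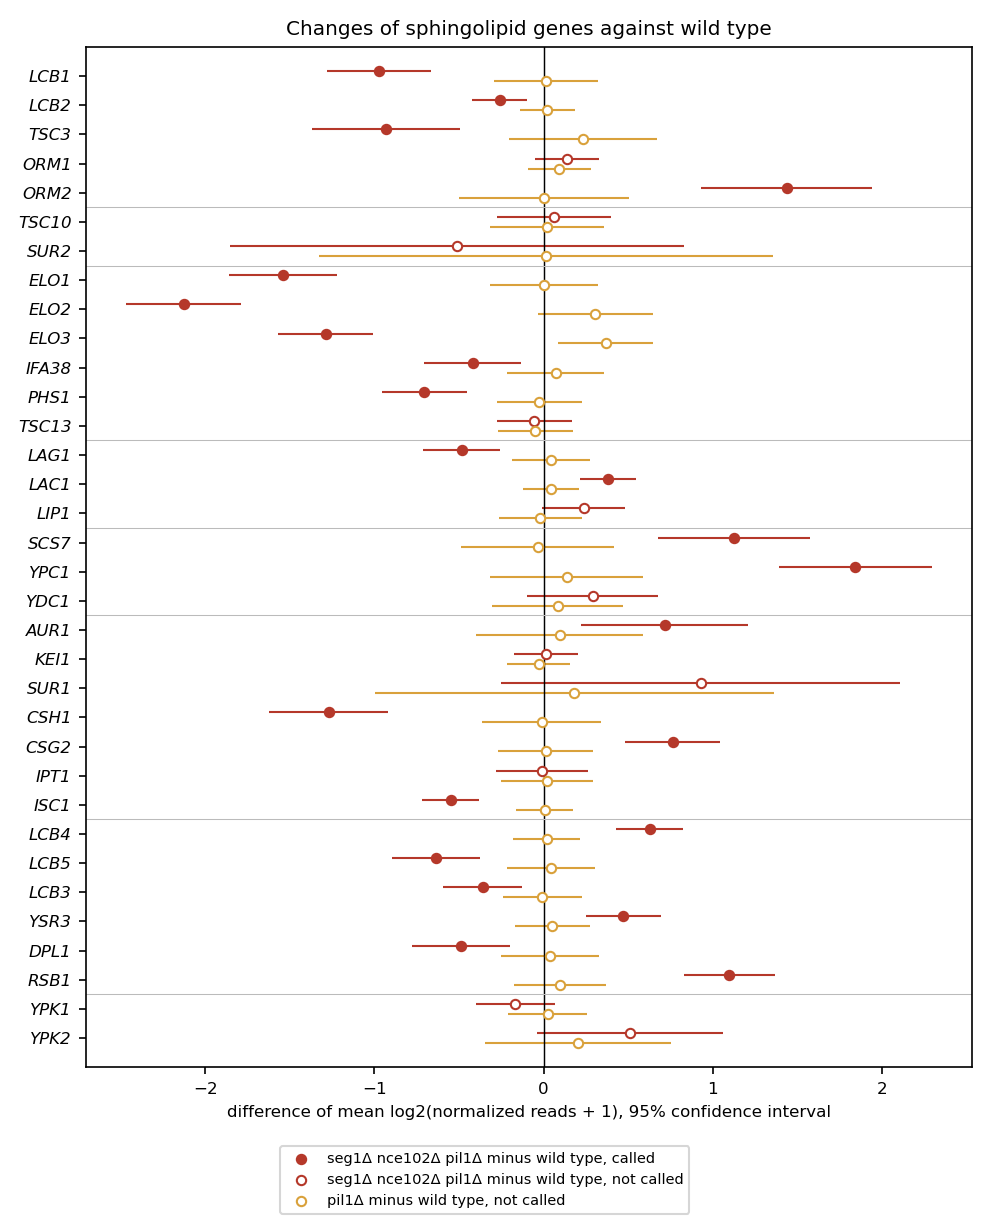
Difference of mean log2(normalized reads + 1) from wild type for the 34 genes, grouped by role, with 95% intervals from limma; filled points passed the test and open points did not. The triple mutant differences run from -2.13 (ELO2) to 1.84 (YPC1), and those of pil1Δ run from -0.05 to 0.37, none called.

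In the synthesis and breakdown of the complex sphingolipids, 2 of 7 genes rose, 2 fell and 3 did not pass, so 57.1% were called against 60.9% of all genes. AUR1 encodes the synthase that puts the inositol phosphate on ceramide, and KEI1 its partner subunit. AUR1 averaged 3649 ± 1219 normalized reads in the triple mutant and 2170.4 ± 375 in wild type, 1.64-fold higher (limma adjusted p = 0.0182). The rise leaned on single libraries: it was 1.37-fold (adjusted p = 0.0352) without triple mutant replicate 1, and the call was lost without wild type replicate 2 (adjusted p = 0.0543), both by limma. KEI1 was not called (log2 fold change 0.01, 95% interval -0.17 to 0.20). IPT1, which encodes the enzyme that adds the last inositol phosphate, was not called either (log2 fold change -0.01, 95% interval -0.28 to 0.26).

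The mannosylation step is carried by either of a pair of catalytic subunits, Sur1 and Csh1, with the regulatory subunit Csg2. CSH1 (YBR161W, chromosome II, 561634 to 562764, R64) had 506, 697 and 606 normalized reads in the triple mutant, 1287, 1593 and 1432 in pil1Δ and 1242, 1738 and 1393 in wild type. The triple mutant libraries were the lowest without overlap, and CSH1 was 2.41-fold lower than in wild type (log2 fold change -1.27, standard error 0.16, limma adjusted p = 0.000124). CSG2 averaged 8247 ± 1362 in the triple mutant and 4818 ± 181 in wild type, 1.70-fold higher (limma adjusted p = 0.000672). SUR1 had 15584, 5720.0 and 9572 normalized reads in the triple mutant, 8038, 2887 and 7764 in pil1Δ and 6715, 2698 and 6821 in wild type. Library 2 was the lowest in each strain, the triple mutant was the highest at each replicate number, and the groups overlapped. SUR1 was not called (log2 fold change 0.93, standard error 0.52, limma adjusted p = 0.152); without the libraries numbered 2 it was 0.85 with an adjusted p of 0.0138 by limma. ISC1, which encodes the phospholipase that cleaves complex sphingolipids back to ceramide, averaged 1172 ± 60.2 in the triple mutant and 1714 ± 81.6 in wild type, 1.46-fold lower (limma adjusted p = 0.000235).

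The genes of long-chain base phosphates and export were all called in the triple mutant relative to wild type, 3 higher and 3 lower, and paralogs went opposite ways. Of all genes, 60.9% were called, 30.1% higher and 30.9% lower. LCB4 and LCB5 encode the kinases that phosphorylate long-chain bases. LCB4, the kinase gene with the higher level per coding kilobase in each strain, had 4317, 4011 and 3988 normalized reads in the triple mutant, 2600.0, 2857 and 2624 in pil1Δ and 2443, 2919 and 2632 in wild type, 1.54-fold higher in the triple mutant than in wild type (limma adjusted p = 0.000279). LCB5 had 1249, 1604 and 1408 in the triple mutant, 2155, 2532 and 2123 in pil1Δ and 2065, 2396 and 2139 in wild type, 1.55-fold lower (limma adjusted p = 0.00124). For both, triple mutant and wild type libraries did not overlap, and LCB4 made up 79.2, 73.4 and 75.7% of the pair per coding kilobase in the triple mutant, against 57.1, 55.4 and 57.6% in pil1Δ and 56.6, 57.3 and 57.5% in wild type.

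LCB3 and YSR3 encode the phosphatases that reverse the kinases. LCB3 averaged 908 ± 121 normalized reads in the triple mutant and 1159.6 ± 46.2 in wild type, 1.28-fold lower (limma adjusted p = 0.0137), but the call was lost without wild type replicate 3 (adjusted p = 0.0504), without triple mutant replicate 3 (0.0514), without all libraries numbered 2 (0.0626) and with the replicate block on only the libraries of these strains (0.0561), by limma. YSR3 averaged 1109 ± 88.6 in the triple mutant and 800.5 ± 73.0 in wild type, 1.39-fold higher (limma adjusted p = 0.00267), and was not called under scaling by total reads (log2 fold change 0.25, limma adjusted p = 0.142). DPL1, which encodes the lyase that removes long-chain base phosphates from the pathway for good, averaged 4942 ± 405 in the triple mutant and 6937 ± 746 in wild type, 1.40-fold lower (limma adjusted p = 0.00924). RSB1 (YOR049C, chromosome XV, 422668 to 423732, R64), which encodes a plasma membrane protein needed for long-chain base release, had 1940.0, 2498 and 2426 normalized reads in the triple mutant, 1114, 1121 and 1165 in pil1Δ and 979, 1221 and 999 in wild type. The triple mutant libraries lay above all others, and RSB1 was 2.14-fold higher than in wild type (log2 fold change 1.10, standard error 0.12, limma adjusted p = 6.74e-05).

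YPK1 and YPK2, the paralogous kinases that act on Orm proteins and on ceramide synthase, were not called. YPK1 averaged 3069.6 ± 159 normalized reads in the triple mutant and 3463 ± 427 in wild type (log2 fold change -0.17, 95% interval -0.40 to 0.06). It was called lower when libraries were scaled by total reads (log2 fold change -0.39, limma adjusted p = 0.0257). YPK2 averaged 9970.5 ± 2966 in the triple mutant and 6868 ± 1564 in wild type (log2 fold change 0.51, 95% interval -0.04 to 1.06). Without triple mutant replicate 1, the lowest of that strain, YPK2 was called at a log2 fold change of 0.78 (limma adjusted p = 0.00943). With all libraries, DESeq2 also called YPK2 (log2 fold change 0.55, DESeq2 adjusted p = 0.0448), whereas edgeR did not (0.54, edgeR adjusted p = 0.0787).

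**Figure D4:**
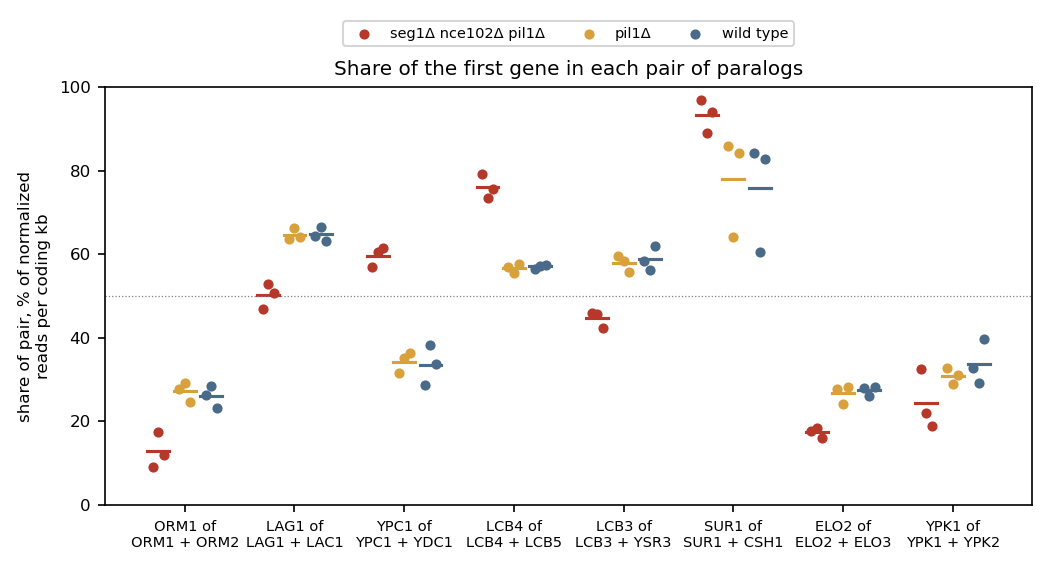
Share of the first-named gene in the sum of each of 8 paralog pairs, in percent, from normalized reads per coding kilobase; points are libraries of the triple mutant, pil1Δ and wild type. The triple mutant libraries do not overlap those of either other strain for ORM1, LAG1, YPC1, LCB4, LCB3, SUR1 and ELO2, while the strains overlap for YPK1.

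The remaining paralog pairs are given in the same unit, the share per coding kilobase. LCB3 made up 44.6 ± 1.99% of the LCB3 and YSR3 sum in the triple mutant, 57.9 ± 1.93% in pil1Δ and 58.9 ± 2.88% in wild type (mean ± SD, n = 3). SUR1 made up 96.8, 89.0 and 94.0% of the SUR1 and CSH1 sum in the triple mutant, against 86.0, 64.1 and 84.2% in pil1Δ and 84.2, 60.5 and 82.8% in wild type. YPK1 made up 32.5, 22.0 and 18.9% of the YPK pair in the triple mutant, against 32.8, 28.9 and 31.2% in pil1Δ and 32.7, 29.1 and 39.6% in wild type, with overlap. The shares are given as a description, and the differences between strains in them were not tested. Coding identity between the paralogs ran from 61.7% (YPC1 and YDC1) to 70.3% (SUR1 and CSH1).

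In pil1Δ the sphingolipid genes stayed close to wild type. Limma called 0 of the 34 genes at an adjusted p under 0.05, edgeR and DESeq2 on the recovered reads also called 0, and limma listed 1, ELO3, at an unadjusted p under 0.05. These values come from the fit without pairing. With the replicate number as a block, limma listed 2 of the 34 (ELO2 and ELO3) and 177 of all genes at an unadjusted p under 0.05, against 59 of all genes without it. With the block and only the libraries of pil1Δ and wild type, it listed 4 (TSC3, ELO2, ELO3 and SUR1) and 826 of all genes, and still called 0 of the 34. Over all 5886 genes limma called 0.017%, which is PIL1 alone. Log2 fold changes of the 34 genes ran from -0.05 to 0.37, with a median of 0.02 against 0.01 over all genes. For 26 of the 34 genes the 95% interval without pairing lay within a 1.5-fold change in either direction, against 82.1% of all genes. That held for 32 with the block and for 34 with the block and only these strains. The libraries of pil1Δ and wild type did not overlap for 2 of the 34 genes, ELO2 and ELO3, both above wild type. Over all genes 6.22% did not overlap, 3.47% above and 2.75% below. ELO3 had a log2 fold change of 0.37 (SE 0.12, 95% interval 0.09 to 0.65) and ELO2 of 0.31 (SE 0.15, 95% interval -0.03 to 0.65), each with an adjusted p of 1 by limma. With the replicate number as a block and only these strains in the fit, the adjusted p was 0.148 for ELO3 and 0.167 for ELO2 by limma.

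The triple mutant against pil1Δ compares strains that both lack PIL1 and are listed as differing in SEG1, NCE102 and LYS2. Any unlisted difference between the strains cannot be told apart from these. The comparison shares the triple mutant libraries with the one against wild type. Of the 34 genes, 9 were called higher and 14 lower, where 62.9% of all genes were called, 30.8% higher and 32.1% lower. At 2-fold or more, 9 of the 34 were called, against 22.0% of all genes. Libraries lay above those of pil1Δ for 9 genes and below for 15 without overlap, where 69.3% of all genes did not overlap, 34.1% above and 35.2% below. ELO2 had a log2 fold change of -2.43 (SE 0.15, adjusted p = 3.11e-06), ELO3 of -1.66 (SE 0.12, adjusted p = 8.38e-06) and ELO1 of -1.54 (adjusted p = 2.25e-05), all by limma. For the initial enzyme and its brake, the log2 fold change was -0.99 for LCB1, -1.16 for TSC3 and 1.43 for ORM2, with adjusted p-values of 0.000239, 0.000685 and 0.000474 in that order by limma. YPC1 was 3.27-fold, SCS7 2.24-fold and RSB1 2.01-fold higher in the triple mutant than in pil1Δ, and CSH1 was 2.39-fold lower.

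Replicate spread set the reach of these tests. Between the highest and lowest library of a strain, the median ratio over the 34 genes was 1.26 in the triple mutant, 1.20 in pil1Δ and 1.24 in wild type, and it was below 1.5 for 27, 31 and 32 genes of these strains. Library 2 was the lowest in all 3 strains for 8 of the 34 genes (ORM2, SUR2, SCS7, YDC1, AUR1, SUR1, IPT1 and DPL1), as for 823 of the 5886 genes tested. It was the highest in all 3 strains for 3 of the 34 genes (LAG1, CSH1 and LCB5), against 791 of all genes tested (13.4%). The labels do not say what the replicate numbers share.

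Genes around the pathway were counted in lists that were chosen with earlier results of these data known. In the list of acyl-CoA supply and fatty aldehyde use, 6 of 9 genes fell and 1 rose in the triple mutant relative to wild type, where 30.9% of all genes fell and 30.1% rose, and the median log2 fold change of the list was -0.84. FAS2 and FAS1, which encode the subunits of fatty acid synthase, averaged 5517 ± 861 and 7461 ± 1103 normalized reads in triple mutant libraries, against 29726 ± 3718 and 24306 ± 1841 in those of wild type, with log2 fold changes of -2.43 and -1.71 (limma adjusted p = 3.61e-06 and 1.49e-05). ACB1, which encodes the acyl-CoA binding protein, had a log2 fold change of -0.84 (limma adjusted p = 1.87e-05). In the list of inositol and phosphatidylinositol supply, whose products give complex sphingolipids their headgroup, 6 of 8 genes fell and 0 rose, against 30.9% and 30.1% of all genes, and the median was -0.74. Of the 6, INO1 had libraries that overlapped those of wild type. ITR1, which encodes the main inositol transporter, averaged 5377 ± 1129.8 normalized reads in the triple mutant and 30758 ± 1332 in wild type, 5.80-fold lower (limma adjusted p = 3.04e-06). INO2 and OPI1, which encode an activator and the repressor of inositol-responsive genes, had log2 fold changes of -1.19 and -0.91 (limma adjusted p = 0.000392 and 0.000111). The letters CATGTGAA shown before ELO2 were also found before INO1, INO2, INO4 and ITR1, 4 of the 8 genes of this list, and before FAS2.

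On the signalling side, 6 of 12 genes of TORC2 and its upstream and partner kinases rose and 1 fell in the triple mutant relative to wild type. The 7 called are 58.3% of the list, against 60.9% of all genes. PKH2, which encodes a kinase that activates Ypk1, averaged 9187 ± 671 normalized reads in the triple mutant and 4942 ± 340.1 in wild type (log2 fold change 0.89, limma adjusted p = 5.1e-05). AVO1, which encodes a TORC2 subunit, and SLM2, which encodes a TORC2 adaptor, had log2 fold changes of 0.54 and 0.61 (limma adjusted p = 0.000811 and 0.000968). Of 5 genes of lipid flippases and their kinases, which lie downstream of Ypk1, 3 rose and 0 fell, so 60.0% were called against 60.9% of all genes. KIN82 and FPK1, which encode the flippase kinases, averaged 8195 ± 263 and 5727 ± 772 normalized reads in triple mutant libraries, against 2256 ± 501 and 2553 ± 297 in wild type, 3.69-fold and 2.24-fold higher (limma adjusted p = 1.38e-05 and 6.11e-05). DNF1, which encodes a flippase, had a log2 fold change of 0.41 (limma adjusted p = 0.00876).

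Of 6 genes of the ceramide-activated phosphatase and its partners, 3 rose and 1 fell, so 66.7% were called against 60.9% of all genes. TPD3, which encodes a scaffold subunit, had a log2 fold change of 0.55, and SAP155 and SIT4, which encode a regulatory partner and a catalytic subunit, of 1.35 and 0.74 (limma adjusted p = 0.000618, 0.00107 and 0.00117). Of 8 pleiotropic drug resistance genes, whose regulators also act on RSB1, 3 rose and 2 fell, so 62.5% were called against 60.9% of all genes. PDR5, which encodes the main drug efflux pump, was 1.73-fold lower (adjusted p = 0.000607), whereas YOR1, which encodes another pump, was 1.66-fold higher and YRR1, which encodes a transcription factor, 1.31-fold higher (adjusted p = 0.00138 and 0.00415), all by limma. In pil1Δ against wild type, where PIL1 was the sole gene that limma called, genes of these 6 lists had log2 fold changes of -0.14 to 0.52, and the libraries of 4 of the 8 inositol supply genes lay above those of wild type without overlap, against 3.47% of all genes.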

How the data were processed

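Poly(A) RNA of 9 yeast libraries was measured, 3 biological replicates per strain. The labels' protocols state that cells were washed in 10 mM NaF/NaN3 and lysed with glass beads, and the RNA was column-purified and treated with DNase. The submitters' processing notes name GSNAP, DESeq2, DESeq and, as genome build, R64. The sources used here give no versions, roles, strand setting, annotation or counting tool.

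For 6215 genes, the first deposited table gives a signal, which is the count of reads over a size factor of the library. Whole reads were recovered from it for 100% of values, at a tolerance of 1e-06. The second deposited table holds log2 values after an unnamed transformation, used as an alternative. Because the values were normalized, the main test was limma 3.58.1 in R 4.3.3 (functions lmFit and eBayes, trended and robust) on log2(value + 1), with group means of all 9 libraries. It ran on the 5886 genes that averaged 10 normalized reads or more and left out 329. Two-sided p-values were adjusted by the Benjamini-Hochberg method over all genes tested, with calls under 0.05. A fold change on this scale understates the change of low genes. The p-values measure the spread between these libraries. The test was tried on simulated data first. The simulation had few changed genes and no pattern shared between replicate numbers, so it does not show how the test does on these data.

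The members and all lists were chosen with earlier results of these data known. Every member is named. Values per library are given where the log2 fold change of the triple mutant against wild type was at least 0.8 in size, for paralogs of such genes, and for serine palmitoyltransferase and the Orm genes. SUR2, LCB4 and LCB5 were added after their values were seen. Up to 3 genes of each neighbouring list are named, by smallest p. Of the 6215 identifiers, 6212 were found in the R64 annotation, from which coordinates, coding lengths and upstream bases were read.

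Replicates of 1 strain differed beyond counting error, with a chi-square of 36.1 to 396.5 per degree of freedom. Deviations from the group means of same-numbered pil1Δ and wild type libraries correlated at 0.639, 0.833 and 0.579, so these libraries deviated alike. Differently numbered libraries were not correlated, and the labels state no pairing. The main test has no pairing, and the fit with the number as a block is an alternative whose values stand beside the pil1Δ results. Alternatives included edgeR 4.0.16 and DESeq2 1.42.0 on the recovered reads.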

Additional observations from a re-analysis of the deposited data

How the results depend on the processing

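Of the 23 calls among the 34 genes in the triple mutant against wild type, 17 held in all 22 alternatives, 6 were lost in some and 0 changed direction. Beside those named above, LCB2 was lost without the libraries numbered 2 (adjusted p = 0.0866 by limma) and with the replicate block on only the strains compared (0.0541), and 6 genes were gained in some: SUR2, LIP1, YDC1, SUR1, YPK1 and YPK2. Leaving out single libraries gave 9 to 10 higher and 12 to 15 lower calls. The cause of these changes was not tested. The values below turned sign, all of them for genes that were not called. Under total reads scaling the log2 fold change was -0.0866 for ORM1, -0.164 for TSC10 and -0.211 for KEI1, and under TMM scaling it was -0.00298 for KEI1. With wild type replicate 1 and triple mutant replicate 1 left out together it was -0.167 for TSC10, 0.0746 for TSC13 and -0.0215 for KEI1. As single libraries were left out it ran from -0.0559 to 0.124 for TSC10, from -0.104 to 0.0397 for TSC13, from -0.00939 to 0.0542 for KEI1 and from -0.0981 to 0.0861 for IPT1. Over all genes, scaling by total reads gave 1029 higher calls in the triple mutant against wild type and 1023 against pil1Δ (1813 as scaled by the authors). In pil1Δ against wild type DESeq2 called 2 genes, both lower (limma 1), and no alternative called any of the 34.

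With the replicate number as a block, 13 of the 34 genes were called higher and 14 lower in the triple mutant against wild type, and calls over all genes came to 4024, against 3586 without it. With only the strains compared in the fit, they came to 3330 with the block and 3306 without it. SUR1 was called with the block (adjusted p = 0.00184 by limma), as were LIP1, YDC1 and YPK2. Deviations of same-numbered triple mutant and wild type libraries correlated at 0.0499, 0.191 and 0.362. These values were positive but lower than those between pil1Δ and wild type, so same-numbered libraries deviated less alike in that comparison. Some shared pattern remained, since library 2 was the lowest in all 3 strains for 823 of the 5886 genes tested. What the numbers share was not tested. In pil1Δ against wild type the block called the same 1 gene and changed no call among the 34.

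Depth limits little here, since the fewest reads behind a value were 53; the spread between 3 libraries limits more. For 9 of the 34 genes in the triple mutant against wild type the 95% interval lay within a 1.5-fold change, against 33.6% of all genes.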
